A study of Drosophila melanogaster with 2 samples.

Results

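The genes described here are 10 components of receptor tyrosine kinase and Ras signalling in the fly, out of 13968 annotated protein-coding genes, and the values are the binding peaks of the tagged protein CG9215 at each of them. They are the ligand gene spi, the receptor gene Egfr, the adaptor genes Shc and drk, the phosphatase gene csw, the exchange factor gene Sos, the GTPase gene Ras85D, the kinase genes Dsor1 and rl, and the transcription factor gene pnt. The pair drk and Shc was picked by the signal of their peaks, which were among the 25 strongest, and the other 8 genes were chosen by name as partners in the same pathway. The peaks of drk and Shc in the lists of both replicates and of the series are therefore described without a test.

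Whole embryos of Drosophila melanogaster, aged 0 to 24 h, of the transgenic strain CG9215-GFP supplied chromatin for ChIP-seq (immunoprecipitation of sheared chromatin followed by sequencing) with an antibody against GFP. There was 1 group of 2 biological replicates from different biosamples, all carrying the CG9215-eGFP fusion, and no other genotype, treatment or stage. What drives the transgene is not given in the sources, and embryos without the tag were not analysed here. Because whole embryos were used, strong binding in few cells and weak binding in many cells cannot be told apart.

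In this pathway a ligand outside the cell, such as Spitz, activates a receptor tyrosine kinase, and adaptor proteins dock on the phosphorylated receptor. The adaptors bring an exchange factor to the membrane, where it loads Ras with GTP, and Ras starts the kinase chain of Raf, the MEK kinase Dsor1 and the MAP kinase rolled. In the fly embryo this chain patterns the ventral ectoderm and the embryo's ends and shapes the trachea and other tissues, and the Ets factor Pointed carries it into the nucleus.

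The authors deposited 8 lists of peaks on the dm6 assembly, 4 of them ranked and 4 of them thresholded. A ranked list holds peaks of any strength, and a thresholded list holds those at an irreproducible discovery rate (IDR) of at most 0.01, a −log10 value of at least 2. A peak in a replicate's thresholded list is called passed in that replicate. The conservative list has 3718 peaks and is read here as the comparison of both replicates, and the other thresholded list of the series has 4098. Replicate 1 had 3442 thresholded of 108069 ranked peaks, and replicate 2 had 2624 of 112176. The signal of a peak is the authors' own value on a scale that is not stated, and it serves only to describe and rank peaks within a list. The median signal was 146 in the conservative list, 85.4 in the thresholded list of replicate 1 and 92.9 in that of replicate 2. Library depth is unknown, since peaks were deposited without read counts.

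A conservative summit lay within the gene body or 2 kb on either side of it in 5 of the 10 genes, namely spi, Egfr, Shc, drk and pnt, against 30.6% of all protein-coding genes. Nothing is read from this count, because drk and Shc were picked for such peaks. With genes sorted by the length of this window, 1 of 3 genes had a summit in windows of up to 10 kb, against a background of 26.2%. In windows of over 10 to 30 kb, 2 of 4 genes had a summit, against 44.1%, and in those over 30 kb, 2 of 3 genes had a summit, against 55.9%. The second thresholded series list gave 4 of 10 genes (background 32.6%), while replicate 1 gave 7 of 10 (28.9%) and replicate 2 gave 4 of 10 (25.1%). All lists come from the same 2 libraries, so these counts are not independent of each other. The count of each list includes drk and Shc, so nothing is read from these counts either.

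A summit within 500 bp of a start site, here called a promoter peak, was found in the conservative list at spi, Shc and drk, or 3 of the 10 genes, against 17.3% of all protein-coding genes. In replicate 1 csw joined them to make 4 of 10 (background 16.1%), and in replicate 2 the count was 3 of 10 (14.5%). All of these counts include drk and Shc, which were picked for their peaks, so nothing is read from them against the background. Of the genes chosen by name, spi alone had a conservative promoter peak. The windows of the 10 genes covered 239 kb and held 12 conservative peaks, or 5.01 per 100 kb, against 4.04 per 100 kb summed over the windows of all protein-coding genes. This density includes the peaks of the picked genes drk and Shc, so nothing is read from it. spi and pnt had 4 conservative summits each, a number reached by 0.988% of protein-coding genes, whose median was 0 and whose highest was 17. At spi, 2 of the 4 belonged to overlapping peaks of 1 site at the outer start site. The farther of them was nearer to the start site of msb1l. Leaving out peaks that overlap a stronger one took the 12 conservative peaks to 11 and left spi below 4. The shares and densities given here keep both peaks. Among genes with windows of over 10 to 30 kb, 2.11% had 4 or more summits, spi among them. Among genes with windows over 30 kb it was 10%, or 79 of 790 genes, pnt among them. Per 10 kb of window, the number of conservative peaks was 2.98 at spi, 1.77 at Shc, 1.72 at drk, 0.667 at pnt and 0.241 at Egfr.

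**Figure D1:**
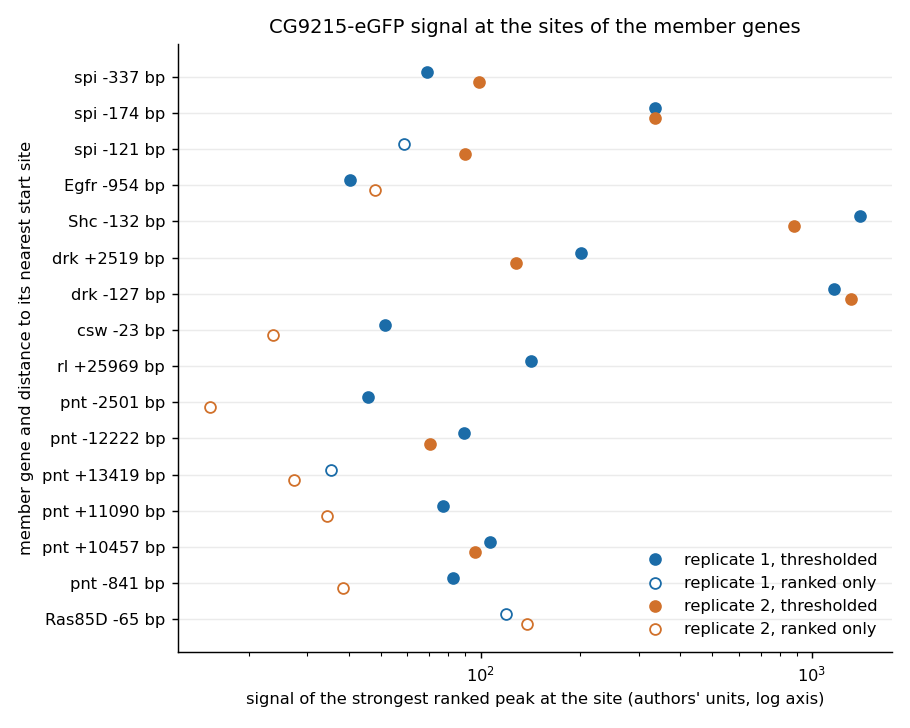
Signal of the strongest ranked peak at each site of the pathway genes (x axis, the authors' units, log scale) in replicate 1 (blue) and replicate 2 (orange), with sites named by gene and distance to the gene's nearest start site. Filled circles passed in that replicate and open circles are ranked only. Shc and the promoter site of drk lie between 882 and 1395, to the right of all other sites, and the rl site has no point for replicate 2.

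Overlapping thresholded peaks of all lists formed 15 sites at 7 of the genes. Of these, 7 sites passed in both replicates, 6 in replicate 1 alone, 1 in replicate 2 alone and 1 in neither, and 11 were in the conservative list. The 7 sites that passed in both replicates were 2 at spi, 1 at Shc, 2 at drk and 2 at pnt, and each was also in both thresholded lists of the series. In the count of single peaks, 7 of the 12 conservative peaks at these genes were overlapped by a thresholded peak of each replicate, against 59.0% of all conservative peaks. Of the 15 thresholded peaks of replicate 1 at these genes, 9 were overlapped by a thresholded peak of replicate 2, which had 11 in all. The same share over all replicate 1 peaks is not given here. Replicate 1 also had more thresholded peaks in all, 3442 against 2624. Nothing particular to these genes is therefore read from the split between replicates.

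The ligand gene spi carried a peak at each of its 3 start sites. It encodes Spitz, the main embryonic ligand of the EGF receptor, and lies on the minus strand of 2L at 19567900 to 19577315. The sequences show 3 of its summits with 50 bp on either side, chosen to set the strong middle site beside the weaker outer ones, on the gene's strand, from the RefSeq sequence of the same assembly, with runs of 6 or more bases that are all A or T in capitals.
spi, middle start site, chr2L:19575711-19575811, minus strand: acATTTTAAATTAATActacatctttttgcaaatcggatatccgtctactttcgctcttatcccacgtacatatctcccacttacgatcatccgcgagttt
spi, inner start site, chr2L:19572897-19572997, minus strand: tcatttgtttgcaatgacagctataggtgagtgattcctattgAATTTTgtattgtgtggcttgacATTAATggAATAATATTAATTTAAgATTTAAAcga
spi, outer start site, chr2L:19577386-19577486, minus strand: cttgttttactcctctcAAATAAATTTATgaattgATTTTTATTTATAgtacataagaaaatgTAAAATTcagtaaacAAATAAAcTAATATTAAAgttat
The strong middle site has a single A/T run of 14 bases near its edge and a G+C content of 37.6%. The outer site, the weakest of the 3, is A/T-rich along most of its length, with a G+C content of 17.8%.

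The middle site, 174 bp upstream of the start site at 19575587 and inside an intron of the longer transcript, was the strongest at spi. Its signal was 679 in both thresholded lists of the series, 335 in replicate 1 and 336 in replicate 2. It ranked 216 in the conservative list, 246 in replicate 1 and 201 in replicate 2. A weaker peak on its upstream flank, 379 bp from the same start site, passed in replicate 1 alone, at rank 3319 of 3442.

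The inner site, 337 bp upstream of the start site at 19572610, had a signal of 171 in both series lists, 68.7 in replicate 1 and 98.8 in replicate 2. Each replicate also passed a weaker neighbouring peak there, of 17.1 in replicate 1 and 10.1 in replicate 2. At the outer start site, at 19577315, a pair of overlapping peaks stood in the series lists, with 151 at 121 bp upstream and 118 at 321 bp upstream. In replicate 2 this pair passed with 89.7 and 41.5, while replicate 1 had a ranked peak of 58.8 that did not pass, at a −log10 IDR of 0.156. The farther summit of the pair lay 65 bp from the start site of the divergent gene msb1l, nearer than to that of spi.

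A start-site pattern of this kind was rare. Among the 460 protein-coding genes with at least 3 start sites more than 1 kb apart, spi alone, or 0.217% of them, had a summit of the conservative list within 500 bp at every start site. Of the other genes described here, pnt and csw also had 3 such start sites, and none of these was that close to a conservative summit. The pattern rests on the conservative list, since in replicate 1 no peak passed at the outer start site, which also faces msb1l. This feature of spi was chosen after its values were seen.

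The receptor gene Egfr, on the plus strand of 2R at 21522420 to 21559977, had a single conservative peak near the bottom of the list. Its summit lay in an intron, 954 bp upstream of the inner start site at 21546643. The signal of 71.9 ranked 3459 of 3718. In replicate 1 the site passed with 40.5, at rank 3268 of 3442. Replicate 2 held a ranked peak of 48.0 there that did not pass, at a −log10 IDR of 0.429, and the second thresholded series list did not include the site.

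Elsewhere in Egfr no list had a thresholded peak. The outer start site at 21522420 was among the bare places, and the ranked lists held from 45 to 55 peaks over the whole window with median signals from 13.3 to 26.9.

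The adaptor gene Shc had its peak near the top of the list, in a promoter it shares. Shc encodes a phosphotyrosine-binding adaptor that couples activated receptors to Drk, and spans 9427010 to 9428671 on the plus strand of 3L. The divergent gene Atat encodes an alpha-tubulin acetyltransferase. The summit stood between the start sites, 132 bp upstream of that of Shc and 120 bp upstream of the nearest of Atat, so the peak cannot be assigned to either gene alone. The stretch around the summit is shown because the peak is among the strongest of the list and spans both start sites.
Shc and Atat promoter, chr3L:9426828-9426928, plus strand: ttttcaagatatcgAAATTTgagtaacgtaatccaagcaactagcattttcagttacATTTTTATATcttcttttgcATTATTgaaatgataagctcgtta
The summit falls at the centre of this sequence, a few bases before its longest A/T run.

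The Shc peak had a signal of 2268 in both series lists, 1395 in replicate 1 and 882 in replicate 2. It ranked 21 in each series list, 16 in replicate 1 and 27 in replicate 2. No other peak passed in the window of this short gene. The 4 to 7 ranked peaks there had median signals from 11.3 to 19.3, so the promoter peak stood alone.

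The adaptor gene drk had the strongest peak of the 10 genes and a weaker peak in an intron. Drk, the fly Grb2, links the activated receptor to the exchange factor Sos. The gene lies on the minus strand of 2R at 13495222 to 13502841. The promoter summit lay 127 bp upstream of the start site at 13502293 and 344 bp from the start site of mars, an overlapping gene on the other strand whose product acts on the mitotic spindle.

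The drk promoter peak had a signal of 2484 in both series lists, 1166 in replicate 1 and 1310 in replicate 2, at ranks 17, 24 and 13 in the conservative list, replicate 1 and replicate 2. It was 778 bp wide in the conservative list, against the 416 bp width that 70.1% of conservative peaks share. In replicate 2 a further summit of 121 stood in the same interval, 188 bp downstream of the outer start site at 13502841. The wide interval thus reached over both start sites of drk.

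The intronic drk peak lay 2519 bp downstream of the start site at 13502293. Its signal was 328 in both series lists, 201 in replicate 1 and 128 in replicate 2, and it passed in each. The nearest start site was that of mars, 847 bp away. Of the peaks next to the picked ones in the conservative list, the promoter of CG42359 and Nsun5 had 2586 at rank 16 and that of CG5180 had 2383 at rank 18. The promoter of CHMP2B and Tcs5 had 2273 at rank 20, and a peak near lncRNA:CR44619 had 2258 at rank 22. At the edge of the 25 strongest peaks, rank 25 had 2075 and rank 26 had 2019.

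**Figure D2:**
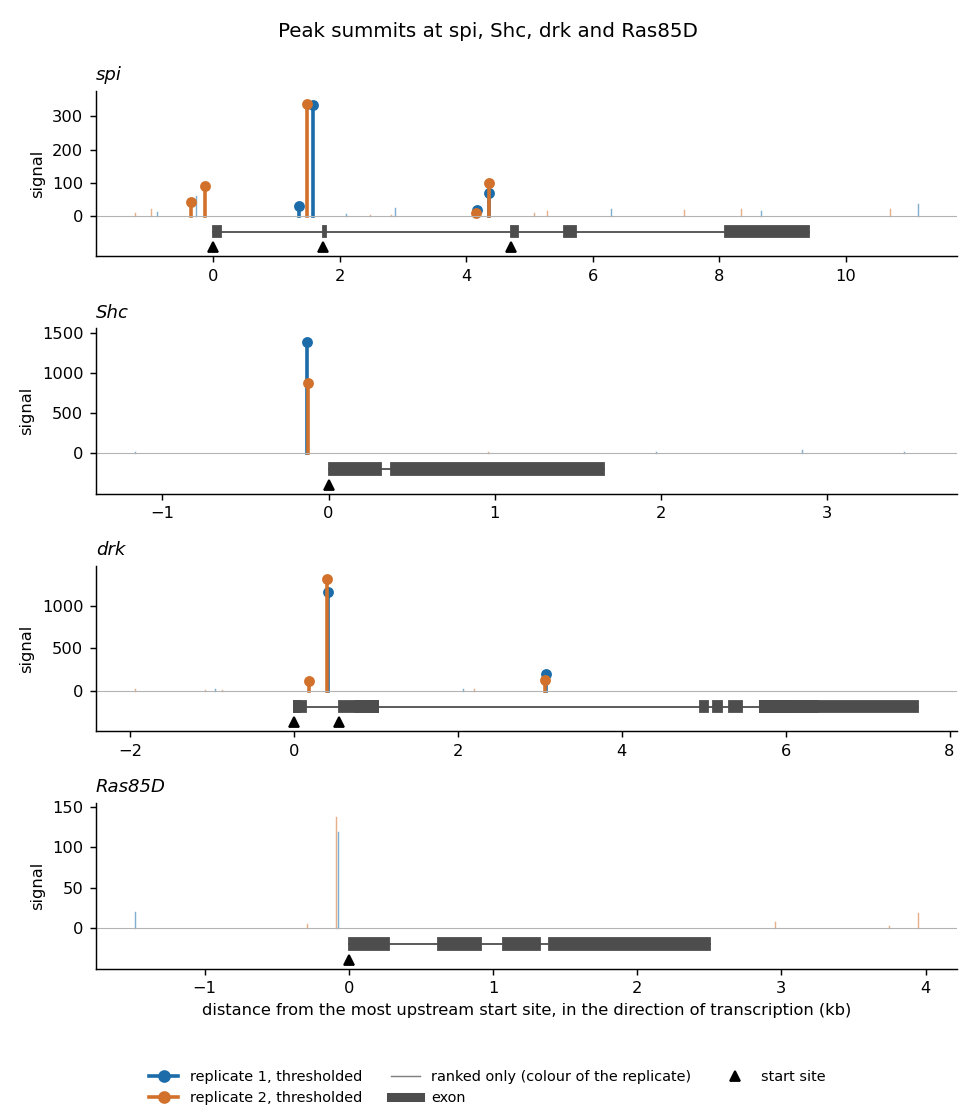
Peak summits of replicate 1 (blue) and replicate 2 (orange) by position, in kb from the most upstream start site in the direction of transcription, at spi, Shc, drk and Ras85D, with signal in the authors' units as height. Thick lines with a dot passed in that replicate, thin lines are ranked only, boxes are exons and triangles are start sites. The summits that passed stand near start sites, except for the drk peak of 201 and 128 inside its long intron, and at Ras85D the lines of 119 and 138 are thin because neither passed.

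The phosphatase gene csw encodes Corkscrew, a cytoplasmic tyrosine phosphatase that transmits receptor signals, and lies on the plus strand of X at 2094234 to 2115701. Its single thresholded peak was found in replicate 1 alone, 23 bp upstream of the outer start site, with a signal of 51.5 at rank 2906. Replicate 2 had a ranked peak of 23.6 there with a −log10 IDR of 0.0649, and the replicate-based ranked list of the series had 66.7 with a −log10 IDR of 0.522. The sequence at the summit is shown because its G+C content, 52.5%, is above that of all conservative summits at these genes.
csw promoter, chrX:2094161-2094261, plus strand: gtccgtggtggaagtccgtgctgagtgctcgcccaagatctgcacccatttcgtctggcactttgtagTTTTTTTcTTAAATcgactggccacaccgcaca
The A/T runs of this window lie next to each other at the start site.

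The exchange factor gene Sos and the kinase gene Dsor1 had no thresholded peak in any list. Sos, which loads Ras with GTP, spans 13813816 to 13819824 on 2L. Its strongest ranked peak had a signal of 55.2 in both series ranked lists, in a coding exon 852 bp downstream of the start site. Replicate 1 had 40.2 as its highest value at Sos, and replicate 2 had 21.3. Dsor1, the fly MEK, spans 9247342 to 9250037 on X, and its highest ranked signal was 29.9 in both series ranked lists, 20.4 in replicate 1 and 17 in replicate 2. All of these values were below the median of the matching thresholded lists.

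The GTPase gene Ras85D, which encodes the Ras protein of this pathway, had a reproducible promoter peak that the thresholded lists leave out. The gene lies on the minus strand of 3R at 9510561 to 9513067, and the summit stood 65 bp upstream of its start site. A start site of the neighbouring gene Rlb1 was also within 500 bp of the summit, so the peak cannot be assigned to Ras85D alone. The ranked signal was 256 in both series lists, 119 in replicate 1 and 138 in replicate 2. The −log10 IDR was 4.05 in the replicate-based ranked list and 4.29 in the other, and 4.92 and 4.55 in replicates 1 and 2, all above the limit of 2. It is 1 of 185 peaks at that limit which are absent from the conservative list, and the sources used here do not give the filter that took them out. By its signal it would have stood at rank 943 of the conservative list. The sequence at this summit is shown because the peak appears in no thresholded list.
Ras85D promoter, chr3R:9513082-9513182, minus strand: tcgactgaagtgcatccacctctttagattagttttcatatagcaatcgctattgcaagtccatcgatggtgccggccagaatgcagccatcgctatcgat
No run of 6 or more A/T bases occurs in it, and the G+C content was 46.5%.

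The MAP kinase gene rl lies near the centromere of 2R, on the plus strand at 1071462 to 1125927, and had a site in replicate 1 alone. The signal of 142 ranked 887 of 3442, at a −log10 IDR of 5, the highest in the lists. The summit lay in an intron, 25969 bp from the nearest rl start site and 3228 bp from an annotated transposable element. Neither replicate 2 nor either ranked list of the series had a ranked peak there.

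The rl site was also the edge of a stretch without ranked peaks that holds the start sites of the gene. Between neighbouring ranked summits this stretch measured 28.7 kb in replicate 1, where the rl site ends it, and 33.3 kb in replicate 2. Gaps of over 20 kb numbered 528 in replicate 1 and 439 in replicate 2 on the 5 main chromosome arms. The ranked lists hold 108069 and 112176 peaks in all. Gaps as long as those at rl were not counted apart.

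The transcription factor gene pnt had its peaks in introns and upstream of the gene, with none within 500 bp of a start site. It encodes the Ets activators that respond to MAP kinase, spans 55.9 kb of 3R at 23290231 to 23346167 and is read from the minus strand. The sequences show its strongest site, the site next to it and the upstream site. They set a site that passed in both replicates beside sites that passed in replicate 1 alone.
pnt, intron, strongest site, chr3R:23335660-23335760, minus strand: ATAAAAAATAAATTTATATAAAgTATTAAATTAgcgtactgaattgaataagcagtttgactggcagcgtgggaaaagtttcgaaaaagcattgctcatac
pnt, intron, neighbouring site, chr3R:23335027-23335127, minus strand: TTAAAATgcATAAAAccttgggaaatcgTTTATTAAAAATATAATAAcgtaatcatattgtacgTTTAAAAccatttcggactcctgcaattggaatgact
pnt, upstream site, chr3R:23346958-23347058, minus strand: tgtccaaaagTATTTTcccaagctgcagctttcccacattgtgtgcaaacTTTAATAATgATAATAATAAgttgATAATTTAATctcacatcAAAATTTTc
The longest A/T runs of the 3 windows measured 22, 19 and 10 bases, at signals of 211, 106 and 121 in the conservative list. Of these sites the strongest alone passed in both replicates. The other pnt site that passed in both replicates, of 156, is not shown and had a longest run of 9 bases. Run length is therefore not read against signal or passing.

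The strongest pnt site, 10457 bp downstream of the outer start site at 23346167, had a signal of 211 in both series lists, 107 in replicate 1 and 96.5 in replicate 2. A further intronic site, 12222 bp upstream of the middle start site at 23314315, had 156 in both series lists, 89.3 in replicate 1 and 70.3 in replicate 2. These were the pnt sites that passed in both replicates.

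Next to the strongest site, at 11090 bp from the outer start site, the signal was 106 in the series lists and 76.8 in replicate 1, while replicate 2 had a ranked peak of 34.4 with a −log10 IDR of 0.886. The upstream site, 841 bp from the outer start site, had 121 in the series lists and 82.5 in replicate 1, and in replicate 2 a ranked peak of 38.5 with a −log10 IDR of 0.0771. Both sites were therefore in the conservative list without having passed in replicate 2. A site of 45.6, 2501 bp upstream of the inner start site at 23295238, passed in replicate 1 alone, with 15.3 in replicate 2. The last pnt site, of 63.4, was in the second thresholded series list alone, with ranked peaks of 35.5 in replicate 1 and 27.4 in replicate 2. A start site of lncRNA:CR46090 was nearer than any of pnt to the 3 conservative summits in introns, at 1907 bp from the strongest, 1274 bp from its neighbour and 7266 bp from the site of 156. The middle start site of pnt lay in a stretch without ranked peaks, of 21.5 kb in replicate 1 and 21.8 kb in replicate 2.

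**Figure D3:**
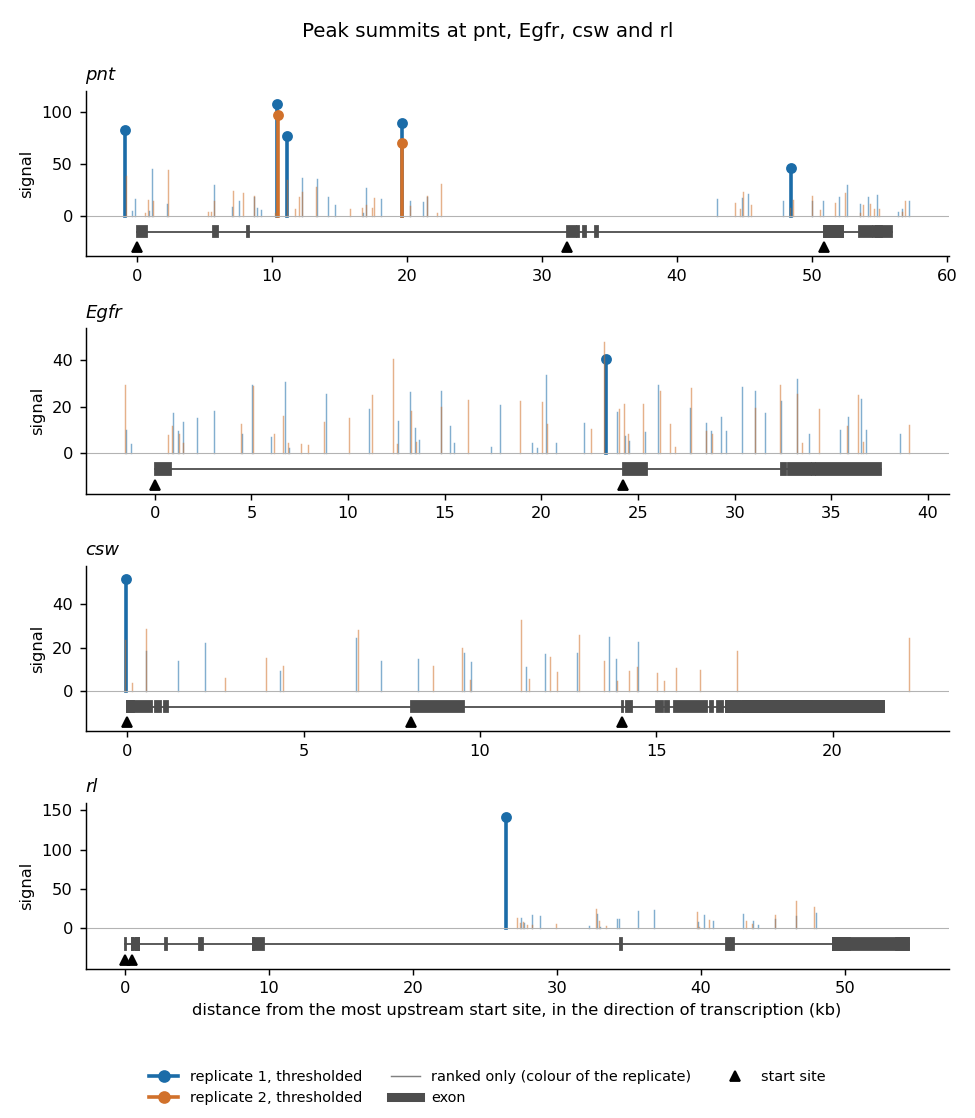
Peak summits of replicate 1 (blue) and replicate 2 (orange) at pnt, Egfr, csw and rl, by position in kb from the most upstream start site in the direction of transcription, with signal in the authors' units as height. Thick lines with a dot passed in that replicate, thin lines are ranked only, boxes are exons and triangles are start sites. The pnt sites of 107 and 96.5 and of 89.3 and 70.3 have dots in both colours, while at Egfr, csw and rl dots are of replicate 1 only.

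The conservative summits of these genes lay in A/T-rich sequence, as summits did across the list. In windows of 50 bp on either side of the summit, the G+C content of the 12 conservative peaks was between 17.8% and 43.6%, with a median of 32.2%. All 3681 conservative summits on the assembled chromosomes had a median of 32.7%, with quartiles of 26.7% and 41.6%. Ranked summits outside every thresholded list had a median of 48.5%, with quartiles of 42.6% and 54.5%. An A/T run of 10 bases or more was present in 9 of the 12 windows, in 53.2% of all conservative windows and in 17.5% of ranked windows outside the thresholded lists. No set of windows was matched for position or accessibility.

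Sites at these genes outside the conservative list varied more. The G+C content was 28.7% and 25.7% at the pnt sites of 45.6 and 63.4, 46.5% at Ras85D, 52.5% at csw and 57.4% at rl. At rl and csw, where the site passed in replicate 1 alone, the value was above the highest of the 12 conservative windows. The other sites that passed in replicate 1 alone had lower values, 43.6% at Egfr and 28.7%, 28.7% and 29.7% at pnt. At these genes, high G+C content was therefore not shared by all such sites, and such sites elsewhere in the genome were not measured. Within the conservative list, 94.6% of windows had a lower G+C content than the rl window and 90.4% had a lower one than the csw window.

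**Figure D4:**
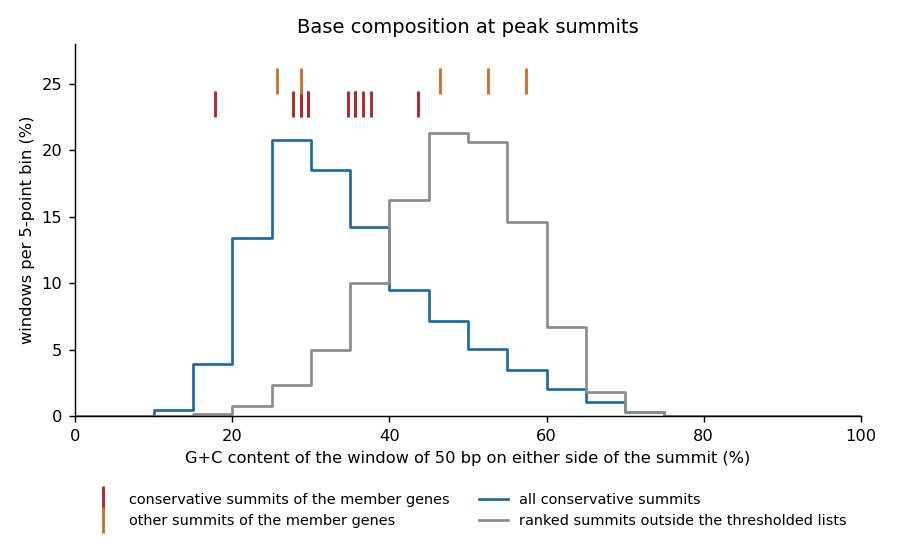
G+C content in % of windows of 50 bp on either side of summits (x axis) and share of windows in % per bin of 5 points (y axis), for all conservative summits (blue) and ranked summits outside the thresholded lists (grey). Ticks above mark single windows of the pathway genes, red for the 12 conservative summits and orange for other sites. The red ticks run from 17.8% to 43.6%, around the blue median of 32.7% and below the grey median of 48.5%.

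Short words of known promoter factors were counted at the 12 conservative summits, with no test. Letters were searched on both strands of these windows, and a match describes the sequence only. The DRE word TATCGATA was in 0 of the 12 conservative windows, in 1.71% of all conservative windows and in 0.205% of ranked windows outside the thresholded lists. Its inner part CGATA, the core of BEAF-32 sites, was in 1 of the 12, at Shc, and in 15.6% and 9.98% of the same sets. The Ras85D window also held CGATA, on the opposite strand from base 95 of the printed sequence.

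The Zelda word CAGGTA was in 2 of 12 windows, at Egfr and drk (1.90% and 2.32% of the same sets), and this was not tested. The Motif 1 core GGTCACAC was in 0 of 12 windows (0.706% and 0.244% of the same sets), the Ets core CCGGAA in 0 (2.04% and 4.01%), and the E-box forms CACGTG (0.869% and 1.58%) and CAGCTG (3.59% and 6.03%) in 0 each. An E-box of any centre, CANNTG, which includes both forms, was in 4 of 12 (35.5% and 44.1%). The GAGA word GAGAG was in 1, at spi (9.75% and 12.6%). TTAAAA, a word chosen after the data were seen, was in 2 of 12, against 32.5% of all conservative windows and 9.29% of ranked windows outside the thresholded lists.

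A wider list of the pathway was written with earlier results of these data known, and 85 of its 87 genes were found in the annotation. Of the 85 genes, 18 or 21.2% had a conservative promoter peak, and without the 10 genes above it was 15 of 75 or 20%, against 17.3% of all protein-coding genes. In the gene body and 2 kb on either side, 46 of 85 genes or 54.1% had a conservative summit, and 41 of 75 or 54.7% without the 10 genes, against 30.6% of all protein-coding genes. Genes of the pathway are long, with a median window of 16.7 kb against 6.16 kb for all protein-coding genes. Within windows of up to 10 kb the share without the 10 genes was 40.0% of 20 genes, against 26.2%, in those of over 10 to 30 kb it was 57.5% of 40 genes, against 44.1%, and in those over 30 kb it was 66.7% of 15 genes, against 55.9%. These shares carry no test.

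The wider list was then taken by role, from the receptor side to the nucleus. No gene among 18 receptor genes had a conservative promoter peak, and 5 of the 18 had a summit in the gene body and 2 kb. Promoter peaks were found at 3 of 19 ligand and processing genes, with spi at 679, the EGF receptor ligand gene Krn at 468 and Pvf2, which encodes a ligand of the PDGF- and VEGF-like receptor, at 149. The Krn summit was also near the start sites of Ndfip and CG7484. Next to the receptor, 4 of 12 adaptor and phosphatase genes had a promoter peak, with the Src kinase gene Src64B at 281 after drk and Shc. Without drk and Shc, which were picked for their peaks, and csw, it was 2 of 9, or 22.2%, against 17.3% of all protein-coding genes.

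Of 9 genes of Ras proteins, exchange factors and GTPase activators 3 had a promoter peak, with the Ras-like GTPase gene Rap1 at 306, Rgl at 305 and C3G, an exchange factor gene for Rap1, at 99.8. In the kinase chain and its scaffolds it was 4 of 12, with the MAP kinase phosphatase gene Mkp3 at 319, ave, which shares the promoter with Rpn6, at 271, and the chaperone gene Hsp83 at 160. Among inhibitors it was 1 of 5, aos, whose product Argos binds Spitz, at 279. Of 10 nuclear effector genes 3 had a promoter peak, with cic, which encodes the repressor Capicua that MAP kinase relieves, at 1124 and rank 83, the corepressor gene gro at 549, and edl at 91.5. At edl neither replicate had a thresholded summit within 500 bp of a start site. The share of all protein-coding genes with a promoter peak was 17.3%. Each role holds few genes, and neither these counts nor the differences between roles were tested.

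**Figure D5:**
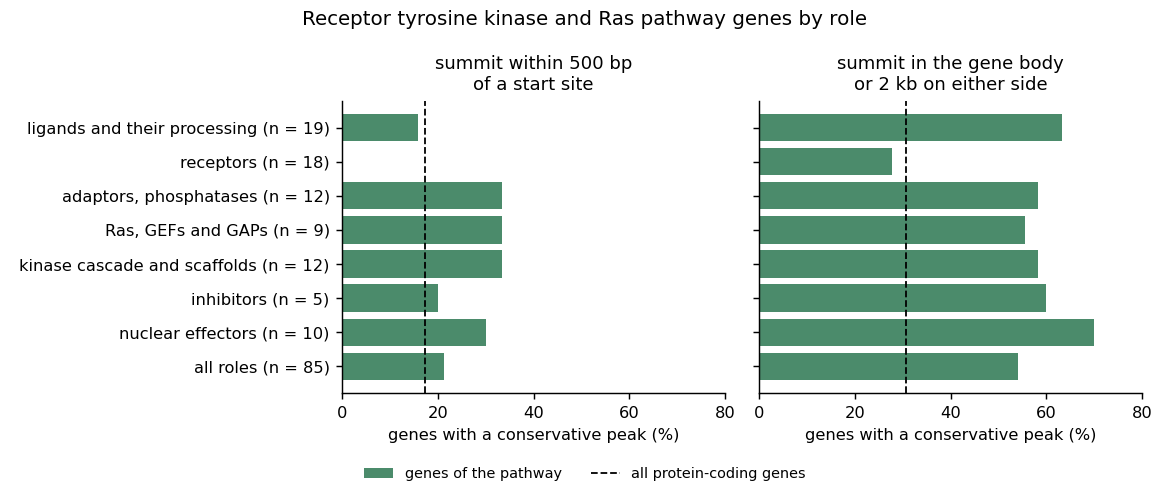
Share of genes in % with a conservative promoter peak (left) and with a conservative summit in the gene body or 2 kb on either side (right), by role in the wider pathway list, with the number of genes in brackets. The dashed line is the share of all protein-coding genes, 17.3% on the left and 30.6% on the right. Receptors have no bar on the left and lie below the line on the right, at 27.8%.

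The kinase gene Raf, which links Ras to Dsor1, was singled out after its values were seen. The gene is 48405 bp long, and its window on X held 11 conservative summits. The strongest had a signal of 669 at rank 226 and lay 2259 bp from a Raf start site. None of the 11 lay within 500 bp of a Raf start site. The summit of 351 was nearest to CG2865, at 278 bp, and that of 153 to lncRNA:CR33218, at 634 bp. Those of 99.0 and 130 were nearest to the element Tirant{}24, at 10823 and 1153 bp. The 11 summits can therefore not all be assigned to Raf. How many genes of this length hold as many summits was not counted.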

How the data were processed

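Peak lists on dm6 were deposited for replicates 1 and 2 of CG9215-GFP embryos and for the series, in narrowPeak form, as the accompanying text files say. Signal values were used as the authors deposited them. The deposited score, between 830 and 1000 in thresholded lists, was computed by the authors from the IDR. The −log10 of the global IDR is as deposited in the ranked lists. The peak caller and aligner are not given in the sources, and the control library was not analysed here. The 4 columns of signal per source in the series ranked lists were not used.

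Genes came from Ensembl release 115 (BDGP6) and sequence from RefSeq (Release 6). Summits were assigned with Python 3.11.15, pandas 2.3.3 and pysam 0.24.0, and the steps were checked on planted peaks. Coordinates count from 1. A site joins thresholded peaks of any list that overlap by at least 1 bp.

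The genes and lists were chosen with earlier results of these data known. Named genes are the 10 genes, their neighbours whose start sites lay within 500 bp of a conservative summit, the 3 strongest per role in the wider list, and the neighbours in rank of drk and Shc. The bounds of the length classes, the start-site pattern of spi and the stretches without ranked peaks were added after the data were seen. So were the Ras85D peak with Rlb1, lncRNA:CR46090 near pnt, and Raf with the elements near its summits. With 1 group of 2 replicates, no test was made.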

Additional observations from a re-analysis of the deposited data

How the results depend on the processing

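No paired analysis was possible because the labels give 1 group and no second condition. The number of genes with a conservative summit, 5, ran from 4 to 6 under other lists, thresholds and flanks, and was 7 without replicate 2 and 4 without replicate 1. The 12 conservative peaks became 6 when each summit was counted only for the gene with the nearest start site, and 15 and 11 without replicate 2 and without replicate 1. The 3 genes with a promoter peak became 5 with start sites within 1000 bp, which adds Egfr and pnt. They became 2 when each summit was counted only for the gene with the nearest start site. Without replicate 2 and without replicate 1 they were 4 and 3. The 18 genes of the wider list ran from 14 within 250 bp to 25 within 1000 bp, and from 16 to 19 with a replicate left out. The 9 shared peaks of replicate 1 became 8 with a reciprocal overlap of 50% and with summits within 100 bp. The strongest spi peak stood in the top 5.81% of the conservative list, 5.27% of the other series list, and 7.15% and 7.66% with replicate 2 and replicate 1 left out. The range with a replicate left out was 0.465% to 1.03% for Shc, 0.495% to 0.697% for drk and 37.9% to 47.3% for pnt, and it was 94.9% for Egfr without replicate 2. The files hold no read counts, so no floor can be given for genes without a peak.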
